A study of Mus musculus with 6 samples.

Results

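The genes described here are 10 structural and surface markers of glia that react to injury, measured in whole retinas of a mouse glaucoma model. They are the intermediate filament genes Gfap, Vim, Nes and Synm, the S100 calcium-binding protein genes S100b and S100a6, and the membrane protein genes Cd44, Cd9, Emp1 and Steap4. All probe sets annotated to exactly 1 of these genes were taken, which gave 23 of 45037 probe sets; the array names 18193 genes in this way. A probe set is a group of short oligonucleotides that reads 1 transcript. A probe set was tested where the third highest of its 6 values reached 4 on the log2 scale, and 12 of the 23, from 8 of the 10 genes, met this. Those 12 read 4 or more in every retina, so their testing did not hang on 1 age.

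Each of 6 Affymetrix arrays held 1 retina of a female DBA/2J mouse, an inbred strain whose Tyrp1 and Gpnmb mutations lead to iris disease, raised intraocular pressure and optic nerve damage with age. The 3 retinas of 8 months came from eyes with a final pressure of 25.3, 26.5 and 30.4 mmHg, and the 3 retinas of 3 months from eyes with 19.1, 15.3 and 18.2 mmHg. Animals were picked by pressure at each age, so age and pressure cannot be told apart. The retinas are from separate animals, 2 of the 8-month retinas being right eyes and the other 4 retinas left eyes. In whole retinas, fewer cells of a type and less RNA per cell cannot be told apart.

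In the healthy retina Gfap is made mainly by astrocytes of the nerve fibre layer, while Müller cells, the radial glia that span the retina, hold vimentin. After injury or raised pressure, Müller cells and astrocytes become reactive and build up GFAP together with vimentin, nestin and synemin in shared filaments. Signalling through gp130 cytokine receptors and STAT3 is a well-known inducer of Gfap. Vimentin and several S100 proteins are also made outside glia, vimentin among other places in the lens.

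Retinas differed in the signal of genes made in neighbouring tissue, such as the lens. The mean log2 signal of 9 tested lens genes of 13 listed was 9.76, 4.88 and 5.27 in the retinas of 8 months, given here and below as retinas 1, 2 and 3, against 6.62, 5.29 and 10.82 in those of 3 months. The retinas called crystallin-rich below are 8-month retina 1 and 3-month retina 3. Cryba4, Mip and Lim2 stayed below the filter. Müller cell markers were present, with 15 of 16 tested at a mean log2 signal of 9.65 to 9.77 at 8 months and 9.60 to 9.68 at 3 months. Of 11 astrocyte markers 8 were tested, at 6.62 to 6.75 against 6.37 to 6.80, with Gjb6 and Ntsr2 below the filter. Their mean rests on bright genes such as Gja1, at 9.24 to 11.56, while Aldh1l1 read 3.56 to 4.17. The mean therefore does not show the presence of astrocytes. Myelin genes of the optic nerve were near level, the 2 of 7 tested reading 7.23 to 7.34 at 8 months and 7.32 to 7.39 at 3 months, and no blood marker passed the filter. The 3' minus 5' log2 signal of Gapdh, a sign of RNA quality, was 0.76 to 0.81 at 8 months and 0.71 to 0.75 at 3 months.

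Among the markers, Gfap had the largest difference between ages, and no probe set passed the test over the whole array. Adjusted p of the 12 ran from 0.223 to 0.980 (limma with Benjamini-Hochberg adjustment over 20973 probe sets). The share called over the array was 0.00477%, a single probe set. At an unadjusted limma p under 0.05 there was 1 of the 12 member probe sets, against 14.9% of all probe sets, or 4.63% in the higher direction. The ages did not overlap in 1 of 12, against 21.8% of all probe sets, or 6.89% with the older retinas above. Both counts refer to the same Gfap probe set, and nothing is read from 1 probe set. By its brightest tested probe set, the median gene of the 8 had a log2 difference of 0.255, and the median over 11219 genes was -0.058. Of the 8, 6 were higher at 8 months, or 75%, against 36.5% of all genes. Of the 12 probe sets, 8 were higher, against 40.6% of all. This count was 4 without 8-month retina 1, 5 without either 3-month retina 1 or 3-month retina 2, 9 without 8-month retina 2, and 11 without 8-month retina 3 or 3-month retina 3. The median of the 8 genes was -0.028 without 8-month retina 1, and 0.184 without both crystallin-rich retinas, where that of all genes was -0.050. It was 0.087 without 3-month retina 1 and 0.123 without 3-month retina 2. In each retina, the median deviation of the 8 genes from their 3-month means was 0.45, 0.04 and -0.10 at 8 months, and -0.08, -0.08 and -0.04 at 3 months.

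**Figure D1:**
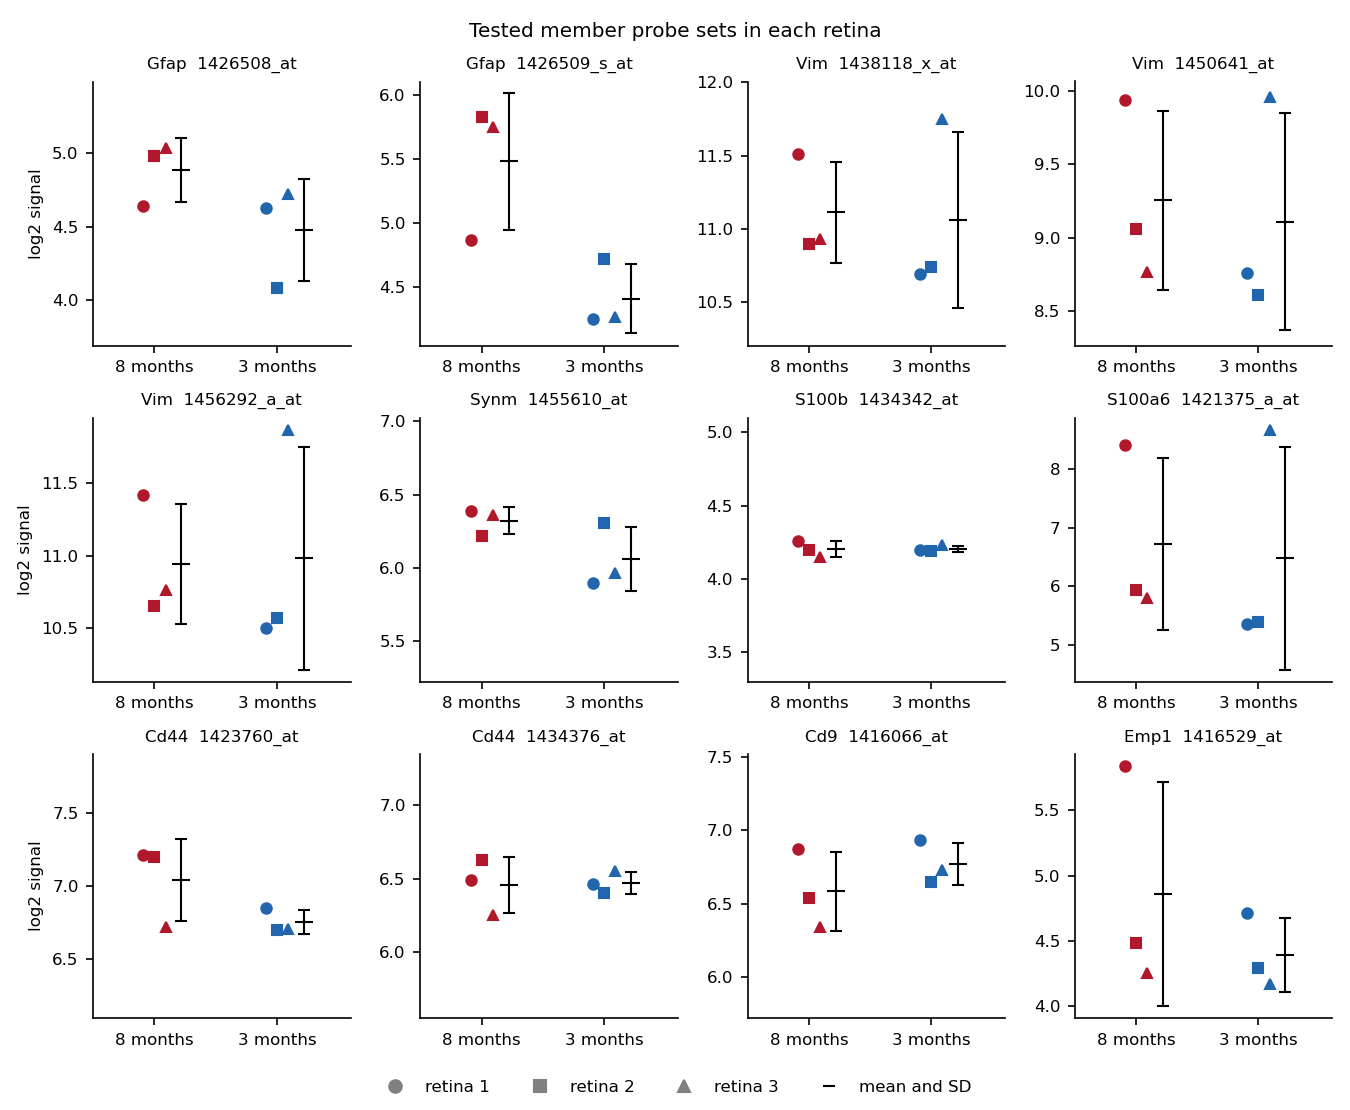
Log2 signal of the 12 tested member probe sets in each retina, with 8 months (red) left of 3 months (blue), 1 symbol per retina number, and the mean and SD of 3 retinas in black. Gfap 1426509_s_at separates the ages, while Vim and S100a6 are highest in 8-month retina 1 and 3-month retina 3, and Emp1 in 8-month retina 1.

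**Figure D2:**
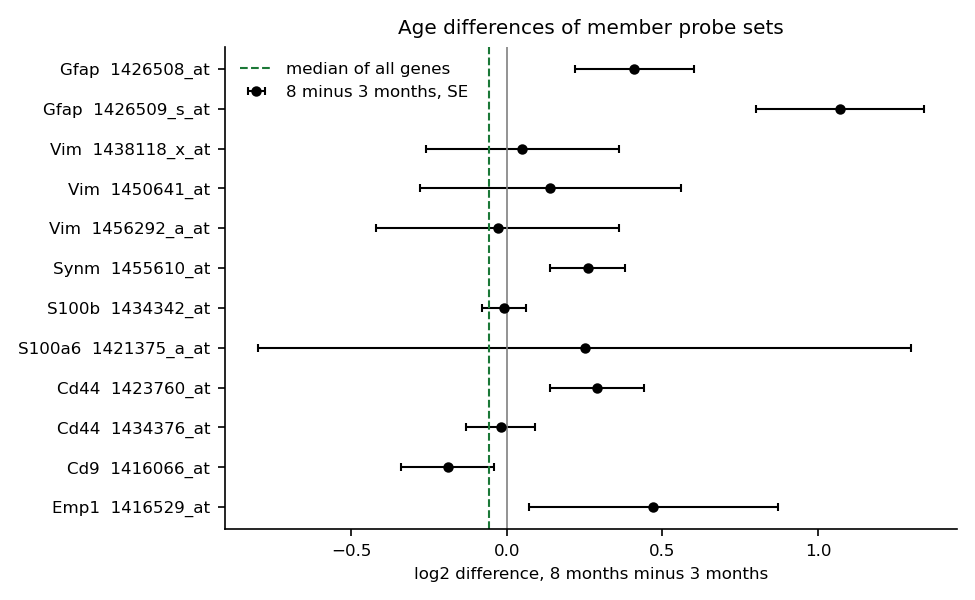
Log2 difference, 8 months minus 3 months, of each tested member probe set with its SE from limma; the dashed line is the median of all genes at -0.058. The difference of Gfap 1426509_s_at is 1.07, and the widest SE, 1.05, belongs to S100a6.

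Gfap, the filament protein by which reactive glia are usually recognised, is read by 3 probe sets. The brightest, 1426509_s_at, gave 4.87, 5.83 and 5.75 at 8 months, against 4.25, 4.72 and 4.27 at 3 months (log2 signal). All 3 older retinas lay above the younger ones, but the lowest older retina, the crystallin-rich one, was 0.15 above the highest younger one. The means were 5.48 ± 0.53 and 4.41 ± 0.27 (SD, n = 3 each), a 2.10-fold difference that did not pass (log2 difference 1.07 ± 0.27 SE; limma unadjusted p = 0.00523, adjusted p = 0.223). The second probe set, 1426508_at, read 4.64, 4.98 and 5.04 at 8 months and 4.63, 4.08 and 4.72 at 3 months. Here the ages overlapped, and the log2 difference was 0.41 ± 0.19 (SE; limma adjusted p = 0.365). The third, 1440142_s_at, stayed at 2.24 to 2.33, the bottom of the scale. The suffix _s_at marks probes that may match more than 1 transcript, so the probe set with the larger difference is the less specific one. The 3-month values of 1426509_s_at also lay near the filter of 4.

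The size of the Gfap difference depended on which older retina stood for the age. Without 8-month retina 1 it was 1.38 at the brightest probe set, and without 8-month retina 2 it was 0.90. Without both crystallin-rich retinas it was 1.31 ± 0.18 (SE; limma unadjusted p = 8.78e-04, adjusted p = 0.664). With eye side in the model the value comes from left eyes alone, that is from 8-month retina 1 against the 3 younger retinas, and was 0.46 ± 0.21 (SE; limma adjusted p = 0.534). For 1426508_at these values were 0.66 without both crystallin-rich retinas and 0.16 with eye side.

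Genes whose profile over the 6 retinas lay closest to that of Gfap were sought among 11218 other genes, by the root mean square distance between deviations from each gene's own mean. The nearest was C1qb, a chain of the complement initiator C1q, at a distance of 0.204, followed by the ferroxidase gene Cp at 0.262 and the antiviral membrane protein gene Ifitm3 at 0.277. Vwc2, the myeloid gene Ly86 and Fndc1 came next, at 0.293, 0.296 and 0.316 log2 units. C1qb read 7.65, 8.37 and 8.14 at 8 months and 7.06, 6.99 and 6.98 at 3 months, with retina 1 the lowest of the older ones, as for Gfap. The same order held for Cp, at 8.64, 9.66 and 9.43 against 8.18, 8.52 and 8.75, and for Ifitm3, at 6.90, 8.48 and 8.06 against 6.21, 6.71 and 6.83. Among the markers themselves, the nearest to Gfap was Synm at rank 646 of 11218, then Cd44 at rank 2014, while S100a6 stood at rank 11205 and Vim at rank 10666. These genes were picked by their closeness to Gfap over the same 6 retinas, so the shared order follows from the choice. The distance counts only these 6 retinas and carries no test. It is not scaled for the spread of a gene. S100b, level across the retinas, stood at 0.654, against 0.532 for Synm and 0.595 for Cd44, so these ranks show little likeness to Gfap.

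Steap4, a metalloreductase that rises in reactive astrocytes, stayed below the filter and was not tested. Its brighter probe set, 1460197_a_at, read 3.32, 4.30 and 3.69 at 8 months and 3.01, 3.16 and 3.16 at 3 months. Every older value was above every younger one, with means of 3.77 ± 0.50 and 3.11 ± 0.08 (SD, n = 3 each). As for Gfap, retina 1 was the lowest of the older retinas. The other probe set, 1425829_a_at, read 2.47 to 2.83 at 8 months and 2.42 to 2.55 at 3 months and overlapped. The third highest value of the brighter probe set was 3.32. Of all member probe sets, Emp1 1459171_at at 3.70 came nearest below the filter and S100b 1434342_at at 4.20 nearest above it. GCRMA, the method behind these values, presses weak signals toward a floor, so a difference of a gene this dim can be understated. With no filter the brighter Steap4 probe set is among 5 of the 23 without overlap of ages in either direction, against 16.1% of all. The other 4 are Gfap 1426509_s_at, Gfap 1440142_s_at, Nes 1453997_a_at and Synm 1457275_at. Nes 1453997_a_at was lower at 8 months, with means of 3.10 against 3.11. Gfap 1440142_s_at was higher by a gap that rounds to 0.00, and both of these lie at the floor.

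The sequence just before the RefSeq transcription start of both genes is shown because Gfap and Steap4 are the pair whose older values lay above all younger ones in their brighter probe sets. Each window holds 250 bases, 5′ to 3′ on the strand of the gene in GRCm38.p6, from RefSeq. Capitals mark matches, on either strand, to the STAT motif TTCNNNGAA, the AP-1 motif TGANTCA or the TATA motif TATAAA.
Gfap, chr11:102897201-102897450, minus strand: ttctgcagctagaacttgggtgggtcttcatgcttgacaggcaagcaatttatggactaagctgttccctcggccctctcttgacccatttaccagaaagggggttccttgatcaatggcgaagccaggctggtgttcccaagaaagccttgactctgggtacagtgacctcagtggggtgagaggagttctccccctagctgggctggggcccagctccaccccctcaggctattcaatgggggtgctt
Steap4, chr5:7960222-7960471, plus strand: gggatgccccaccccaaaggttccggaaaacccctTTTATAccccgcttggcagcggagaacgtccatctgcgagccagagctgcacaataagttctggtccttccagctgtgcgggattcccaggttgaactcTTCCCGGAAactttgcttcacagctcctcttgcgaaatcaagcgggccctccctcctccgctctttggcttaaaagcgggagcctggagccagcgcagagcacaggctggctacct

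The Steap4 window held the STAT letters once, at 116 to 108 bases before the start, and the TATA letters on the opposite strand, while the Gfap window held none of the 3 motifs. Of 32851 RefSeq starts of the mouse, 7.02% had the STAT letters in the same 250 bases, 6.75% the AP-1 letters and 12.4% the TATA letters. Of the 11 starts listed for the 10 genes, 2 had the STAT letters, those of Steap4 and Emp1. A match of letters is a description and not a binding site.

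Vim, the main filament gene of Müller cells, was highest in the retinas rich in crystallins. Its specific probe set 1450641_at read 9.94, 9.06 and 8.77 at 8 months and 8.76, 8.61 and 9.96 at 3 months. The crystallin-rich retina of each age was the highest, 8-month retina 1 and 3-month retina 3 being almost level with each other. The log2 difference between ages was 0.14 ± 0.42 (SE; limma adjusted p = 0.889). The probe sets 1438118_x_at and 1456292_a_at gave the same picture, at 11.51, 10.90 and 10.93 against 10.69, 10.74 and 11.75 for the first, and at 11.42, 10.65 and 10.76 against 10.50, 10.57 and 11.87 for the other. Their log2 differences were 0.05 ± 0.31 and -0.03 ± 0.39 (SE; limma adjusted p = 0.948 and 0.976). All 3 read the same gene and are not separate evidence.

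With both crystallin-rich retinas left out, the log2 differences of the 3 Vim probe sets were 0.23 ± 0.14, 0.20 ± 0.10 and 0.17 ± 0.11 (SE, in the order above), with limma adjusted p of 0.715, 0.690 and 0.715. For each of the 3, both remaining older retinas were above both remaining younger ones. With so few retinas, 39.9% of all probe sets had ages that did not overlap, in either direction. The SE of 1450641_at was 0.14 there, against 0.42 with all retinas. Without 8-month retina 1 alone, the value of 1450641_at was -0.20, and without 3-month retina 3 alone it was 0.57. A direction for Vim between ages therefore cannot be given from all 6 retinas.

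S100a6, a calcium-binding protein of the S100 family made by many dividing and epithelial cells, showed the same pattern at a larger scale. It read 8.42, 5.94 and 5.80 at 8 months and 5.36, 5.39 and 8.68 at 3 months. The crystallin-rich retinas stood 2.54 above the mean of the other older retinas and 3.31 above the mean of the other younger ones. The log2 difference between ages was 0.25 ± 1.05 (SE; limma adjusted p = 0.928). Among the 4 remaining retinas it was 0.50 ± 0.11 (SE; limma unadjusted p = 0.00612, adjusted p = 0.664), with both older retinas above both younger ones. In that setting 7.47% of all probe sets had an unadjusted limma p under 0.05, and in 39.9% the ages did not overlap, in either direction. Leaving out 8-month retina 1 alone gave -0.60, and leaving out 3-month retina 3 alone gave 1.35.

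The crystallin-rich retina was the highest of its age by more than 0.5 in both ages for 4 of the 12 probe sets, the 3 of Vim and that of S100a6, against 0.558% of all tested probe sets. This count was set after the values were seen. The part of lens material in the levels of Vim and S100a6 was not tested. Genes of the iris and ciliary pigment cells, 2 of 6 tested, read 6.82, 5.22 and 4.48 at 8 months and 4.56, 6.61 and 6.94 at 3 months, and were thus high in 3-month retina 2 as well, where Vim and S100a6 were low. Genes of the pigment epithelium, 5 of 6 tested, read 6.62, 7.01 and 5.73 against 5.26, 6.19 and 7.02.

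**Figure D3:**
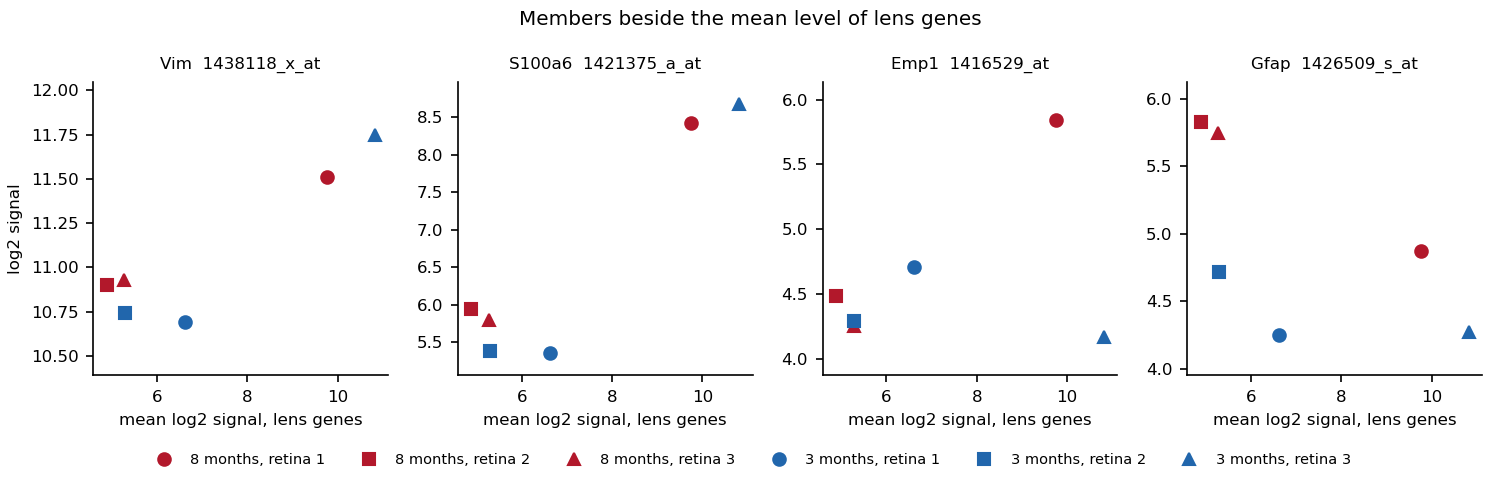
Log2 signal of Vim, S100a6, Emp1 and Gfap (vertical) against the mean log2 signal of 9 lens genes (horizontal) in each of the 6 retinas, 8 months in red and 3 months in blue. Vim and S100a6 are high in both retinas rich in lens genes, Emp1 in 8-month retina 1 alone, and Gfap in 8-month retinas 2 and 3, which have the lowest and the second lowest lens level.

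Emp1, a membrane protein of the PMP22 family that rises in reactive astrocytes after ischaemia, was high in a single retina. Probe set 1416529_at read 5.84, 4.48 and 4.25 at 8 months and 4.71, 4.29 and 4.17 at 3 months. Retina 1 was 1.47 above the mean of the other older retinas, which overlapped with the younger ones. The other crystallin-rich retina, of 3 months, had the lowest Emp1 value of all 6. The log2 difference was 0.47 ± 0.40 (SE; limma adjusted p = 0.594), and -0.02 without 8-month retina 1. A second probe set, 1459171_at, was below the filter at 3.69 to 3.70 in the older retinas and 3.70 to 4.31 in the younger ones, with its highest value in 3-month retina 3.

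The sequences before the starts of these 3 genes are shown with the same motifs in capitals, since they carry the retina-to-retina differences. Of 2 starts listed for Emp1, the one with motif matches is given. Its window lies inside the annotated Emp1 gene, which begins at base 135362550 of chromosome 6.
Vim, chr2:13574061-13574310, plus strand: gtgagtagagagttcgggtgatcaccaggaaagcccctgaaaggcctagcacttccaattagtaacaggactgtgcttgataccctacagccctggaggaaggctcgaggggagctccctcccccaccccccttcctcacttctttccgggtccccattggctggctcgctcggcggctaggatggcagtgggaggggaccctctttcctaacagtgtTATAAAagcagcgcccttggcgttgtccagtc
S100a6, chr3:90612644-90612893, plus strand: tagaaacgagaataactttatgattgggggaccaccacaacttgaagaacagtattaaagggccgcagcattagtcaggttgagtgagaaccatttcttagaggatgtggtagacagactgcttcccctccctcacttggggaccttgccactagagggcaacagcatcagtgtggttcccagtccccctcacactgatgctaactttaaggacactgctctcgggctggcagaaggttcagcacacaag
Emp1, chr6:135362681-135362930, plus strand: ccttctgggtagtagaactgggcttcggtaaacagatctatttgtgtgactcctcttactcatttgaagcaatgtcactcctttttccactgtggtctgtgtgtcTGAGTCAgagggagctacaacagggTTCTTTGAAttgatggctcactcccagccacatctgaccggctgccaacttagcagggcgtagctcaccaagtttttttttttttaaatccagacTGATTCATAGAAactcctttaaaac

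Vim held the TATA letters 32 to 27 bases before its start, and S100a6 none of the 3 motifs. Emp1 held the STAT letters 2 times and the AP-1 letters 2 times, the copies nearest the start overlapping by 4 bases. The other Emp1 start held none.

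Synm encodes synemin, a large filament protein that joins vimentin and GFAP filaments to the cell membrane. It read 6.39, 6.22 and 6.36 at 8 months and 5.90, 6.31 and 5.97 at 3 months. The older retinas were close together, and 3-month retina 2 lay among them. The log2 difference was 0.26 ± 0.12 (SE; limma adjusted p = 0.374). With single retinas left out it ran from 0.19 to 0.39, and it was 0.18 without both crystallin-rich retinas. The highest value came without 3-month retina 2, the younger retina that overlapped (limma adjusted p = 0.126). A dim probe set, 1457275_at, read 3.21, 2.86 and 3.00 against 2.80, 2.80 and 2.58, below the filter, with the ages not overlapping.

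Nes encodes nestin, a filament of neural progenitors that returns in reactive Müller cells. Its 3 probe sets were below the filter in all retinas, between 2.28 and 3.11. At this floor neither presence nor change of Nes could be read.

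S100b, a calcium-binding protein of astrocytes and Müller cells, was near the filter and level. Probe set 1434342_at read 4.26, 4.20 and 4.15 at 8 months and 4.20, 4.19 and 4.23 at 3 months. Its log2 difference was -0.01 ± 0.07 (SE; limma adjusted p = 0.980), the smallest range of the tested probe sets at 0.11 over all 6 retinas. The other probe set, 1419383_at, was below the filter at 3.58 to 3.63 against 3.59 to 3.94. So close to the floor, a difference would be pressed toward 0.

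Cd44, the hyaluronan receptor, is found on the tips of Müller cells and on leukocytes. Probe set 1423760_at read 7.21, 7.20 and 6.72 at 8 months and 6.85, 6.70 and 6.71 at 3 months. Older retinas 1 and 2 were above the younger ones and retina 3 among them. The log2 difference was 0.29 ± 0.15 (SE; limma adjusted p = 0.402). With single retinas left out it ran from 0.20 to 0.45. The highest value came without 8-month retina 3, the older retina that overlapped (limma adjusted p = 0.291). The dimmer probe set 1434376_at did not repeat the difference, at 6.49, 6.63 and 6.25 against 6.46, 6.40 and 6.55. Its log2 difference was -0.02 ± 0.11 (SE; limma adjusted p = 0.962). The 2 other Cd44 probe sets lay at 2.26 to 2.51, at the bottom of the scale.

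Cd9, a tetraspanin of Müller cells and many other cells, was the marker whose brightest probe set was furthest below its 3-month level. It read 6.87, 6.54 and 6.34 at 8 months and 6.93, 6.65 and 6.73 at 3 months, with retina 1 the highest of the older ones and within the younger range. The log2 difference was -0.19 ± 0.15 (SE; limma adjusted p = 0.561). With single retinas left out it ran from -0.34 to -0.07, and it was 0.10 with eye side in the model. The lowest value came without 8-month retina 1 (limma adjusted p = 0.501).

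Other genes of the general astrocyte reaction differed in the same direction as Gfap. This set is commonly called pan-reactive, and like the neuroinflammation and ischaemia panels it was described in mouse brain astrocytes. Of 9 pan-reactive genes outside the 10 markers, 5 were tested and 5 were higher at 8 months, against 36.5% of all genes. Their median log2 difference was 0.761. None passed over the array, and 4 had an unadjusted limma p under 0.05, against 4.63% of probe sets in that direction. S1pr3, a sphingosine-1-phosphate receptor gene, differed by 0.70 ± 0.15, Osmr, the oncostatin M receptor gene, by 0.44 ± 0.13, Cp by 0.76 ± 0.27, and the protease inhibitor gene Serpina3n by 0.84 ± 0.35 (log2, SE; limma adjusted p = 0.207, 0.255, 0.292 and 0.334). Serpina3n read 3.94, 5.22 and 5.01 at 8 months and 3.49, 3.85 and 4.32 at 3 months, again with retina 1 lowest among the older ones. Lcn2, the remaining tested gene, differed by 2.01 ± 0.88 (log2, SE; limma adjusted p = 0.346). It read 5.23, 8.97 and 8.19 at 8 months and 5.03, 5.46 and 5.87 at 3 months. Its value in 8-month retina 1 lay within the younger range. S1pr3 had the other order, at 8.26, 7.82 and 7.97 against 7.09, 7.37 and 7.49, with retina 1 the highest. Serpina3n lay near the filter, and Osmr passed it through its 8-month values of 4.12, 4.57 and 4.44 alone, its 3-month values being 3.95, 3.85 and 4.01, so the count and median of this list are no support for a change. Timp1, Hspb1, Cxcl10 and Aspg were below the filter.

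The panels named for neuroinflammation and ischaemia were near level. Over all genes, 36.5% were higher at 8 months. Of 13 neuroinflammation genes 5 were tested, 3 of them higher and 2 lower, with a median of 0.075. Fkbp5, a glucocorticoid-responsive chaperone gene, differed by -0.38, and Serping1, the C1 inhibitor gene, by 0.45, while H2-D1 and Srgn differed by 0.12 and -0.17 (log2; limma adjusted p = 0.445, 0.512, 0.657 and 0.682). Of 12 ischaemia genes besides Emp1, 4 were tested, 3 higher and 1 lower, with a median of 0.065, and Stat3, S100a10, Sphk1 and Ptgs2 differed by 0.11, 0.20, 0.02 and -0.04 (limma adjusted p = 0.698, 0.748, 0.918 and 0.927). S100a10 read 7.92, 7.10 and 7.11 at 8 months and 6.90, 7.05 and 7.61 at 3 months, the crystallin-rich retina being the highest of each age. In these panels no tested gene had an unadjusted limma p under 0.05, against 14.9% of all probe sets.

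**Figure D4:**
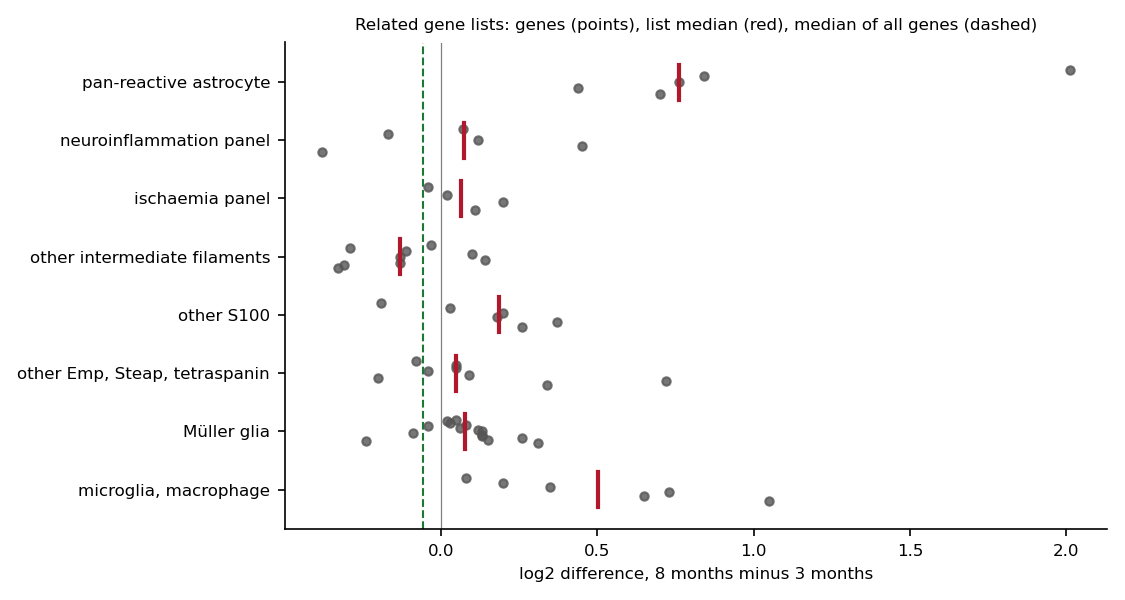
Log2 difference, 8 months minus 3 months, of the tested genes of related lists (points, 1 per gene by its brightest probe set), with the median of each list in red and the median of all genes dashed. The pan-reactive genes, median 0.761, and the microglial genes, median 0.501, lie to the right, while other intermediate filaments, median -0.129, lie to the left.

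Filament genes outside the glial group were lower or level. Of 14 such genes 9 were tested, 2 higher and 7 lower, where 36.5% of all genes were higher. Their median log2 difference was -0.129, against -0.058 for all genes. Krt18, a keratin of simple epithelia, read 9.31, 9.31 and 9.39 at 8 months and 9.62, 9.71 and 9.66 at 3 months, and the nuclear lamin gene Lmnb1 9.41, 9.69 and 9.71 against 9.97, 9.93 and 9.84. In both genes every older retina was below every younger one, which held for 14.9% of all probe sets. Their log2 differences were -0.33 ± 0.08 and -0.31 ± 0.11 (SE; limma adjusted p = 0.218 and 0.283). The neuronal filament genes Nefl and Ina differed by -0.13 and 0.14 (limma adjusted p = 0.547 and 0.554). Des, Prph, Krt8, Krt19 and Bfsp1 were below the filter.

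Of 12 other S100 genes 6 were tested, 5 higher and 1 lower, against 36.5% of all genes higher, with a median of 0.187. S100a1 read 6.62, 6.49 and 6.59 at 8 months and 6.15, 6.41 and 6.35 at 3 months, without the crystallin pattern of S100a6 (log2 difference 0.26 ± 0.10 SE; limma adjusted p = 0.300). S100a4 did have that pattern, as did S100a10 above. It read 7.45, 5.71 and 5.51 at 8 months and 5.68, 5.42 and 8.13 at 3 months, the crystallin-rich retina being the highest of each age. S100a13 differed by 0.37 ± 0.15 with overlapping ages, and S100a9, a protein of neutrophils, by 0.18 ± 0.12 (SE; limma adjusted p = 0.327 and 0.508). Among 13 relatives of Emp1, Steap4 and Cd9, 8 were tested, 5 higher and 3 lower. Set against the same 36.5%, their median was 0.050. Steap2, another metalloreductase gene, read 7.17, 7.16 and 7.14 at 8 months and 6.94, 6.79 and 6.72 at 3 months (log2 difference 0.34 ± 0.09 SE; limma adjusted p = 0.223). Cd53, a tetraspanin of leukocytes, read 6.02, 7.09 and 6.37 against 5.90, 5.67 and 5.73 (0.72 ± 0.25 SE; limma adjusted p = 0.285). Tspan4 and Emp2 differed by -0.20 and 0.09 (limma adjusted p = 0.471 and 0.739). Pmp22 was also highest in the crystallin-rich retina of each age, at 9.56, 8.85 and 8.72 against 8.86, 8.46 and 10.06.

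Markers of astrocytes, Müller cells and microglia are set beside the glial genes. Of the 8 tested astrocyte markers, which include Gfap and S100b, 3 were higher and 5 lower at 8 months, and Gfap was 1 of the 3. Of all genes 36.5% were higher, and the median log2 difference of these markers was -0.007. Aldh1l1, a folate enzyme gene of astrocytes, differed by -0.24 ± 0.15 (log2, SE; limma adjusted p = 0.495). The aldolase gene Aldoc read 10.38, 10.30 and 10.38 at 8 months and 10.41, 10.40 and 10.55 at 3 months, a difference of -0.10 ± 0.08 (log2, SE; limma adjusted p = 0.585). Every older retina was below every younger one for Aldoc. Müller cell markers, a list that includes Vim, were higher in 12 of 15, against 36.5% of all genes, with a median of 0.076. The water channel gene Aqp4 differed by 0.31 ± 0.10 (log2, SE; limma adjusted p = 0.273) and Car14, Glul and Crym by -0.24, 0.15 and 0.26 (limma adjusted p = 0.418, 0.444 and 0.535). Microglial and macrophage markers differed in the same direction as Gfap. The 6 tested of 14 had a mean log2 signal of 6.05 to 6.15 at 8 months and 5.55 to 5.62 at 3 months, with no overlap. All 6 were higher, against 36.5% of all genes, with a median of 0.501, and 4 had an unadjusted limma p under 0.05, against 4.63% of all probe sets in that direction, C1qb at 1.05, Ctss at 0.65, Lyz2 at 0.73 and Tyrobp at 0.35 (limma adjusted p = 0.177, 0.177, 0.222 and 0.232). Fcer1g and Csf1r, also tested, differed by 0.20 and 0.08 with overlapping ages (limma adjusted p = 0.461 and 0.887). Csf1r was thus near level, at 5.28, 4.63 and 5.24 against 4.91, 4.60 and 5.39. The defining microglial markers Cx3cr1, Aif1, P2ry12, Itgam and Trem2 were below the filter, as were C1qa, C1qc and Cd68. The part of myeloid cells in the levels of Cd44, Cd9 and the other markers was not tested.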

How the data were processed

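RNA of 6 whole retinas was amplified, biotin-labelled and hybridised to Affymetrix mouse arrays, per the labels' protocols. The deposited values are log2 signals, 1 per probe set, which the authors made with GCRMA (1.1.0, under R 1.9.0) according to the submitters' processing notes, which name no options. Of 45101 rows, 64 controls were left out. Probe sets were named from the platform annotation (34945 with 1 gene, 932 with several, 9160 with none), and all 23 member probe sets matched a GRCm38.p6 gene identifier. Testing the 20973 probe sets that passed the filter, limma (3.58.1, under R 4.3.3; lmFit, eBayes) compared 8 with 3 months without covariates, two-sided, at a threshold of 0.05. A gene was represented by its tested probe set of highest mean. The members and lists were chosen with earlier results of these data known, so no pattern here is independent support for those.

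All members are named, with up to 4 tested genes of smallest p from each related list and the 6 genes nearest to Gfap. Lcn2, S100a4 and Pmp22 are named in addition for their values by retina. Of the cell type lists, single genes are named for astrocytes, Müller cells and microglia. Replicate numbers of the labels did not pair the samples. Precision is limited by having 3 arrays per age; exact permutation, whose smallest two-sided p is 0.1 here, was not used. The fit was tested on simulated data. Alternatives were other filters, scalings and variance settings, eye side, the replicate block, probe set specificity, and leaving out retinas.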

Additional observations from a re-analysis of the deposited data

How the results depend on the processing

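Across all alternatives run, 0 member probe sets passed the adjusted threshold. Where it was tested, the difference of Gfap 1426509_s_at stayed positive, between 0.46 and 1.38 with limma adjusted p from 0.134 to 0.664. The filter at 6 and the setting without _s_at, _x_at and _a_at probe sets left this probe set out. Gfap 1426508_at, which the filter at 6 left out, Synm 1455610_at and Cd44 1423760_at also stayed positive where tested. Probe sets called over the array numbered 1 in the main setting, 0 with no filter, with eye side, under the replicate block and without both crystallin-rich retinas, 2 with the filter at 6, quantile normalization, median centring or cyclic loess, 3 with trend and robust eBayes, and 0 with any single retina left out. Member probe sets at an unadjusted p under 0.05 numbered 3 with quantile normalization, cyclic loess or without both crystallin-rich retinas, 4 with median centring, 0 with the filter at 6 or without _s_at, _x_at and _a_at probe sets, and 1 to 3 with single retinas left out. Those with non-overlapping ages numbered 2 with median centring, 5 with no filter, 7 without both crystallin-rich retinas (39.9% of all probe sets), 0 with the filter at 6 or without the suffixed probe sets, and 2 to 6 with single retinas left out, where fewer arrays make overlap rarer (29.2% to 39.8% of all probe sets). The member gene median ran from -0.028 to 0.347 with single retinas left out. Of 12 member probe sets, 8 were higher in the main setting, 11 with median centring, 9 with quantile normalization or cyclic loess, and 12 with eye side, while the share of all probe sets higher was 40.6%, 58.8%, 48.7%, 49.7% and 41.3% in those settings. With eye side, every difference given here and below compares 8-month retina 1, a crystallin-rich one, with the 3 younger retinas. That setting is therefore a contrast of 1 older retina. With single retinas left out, 4 to 11 of the 12 were higher.

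Directions turned for Cd44 1434376_at, at 0.07 under the 3 scalings, 0.02 with eye side and 0.01 without both crystallin-rich retinas; for Cd9, at 0.10 with eye side; for S100b, at 0.05 with eye side and 0.08 with median centring; for Vim 1456292_a_at, at 0.44 with eye side, 0.05 with median centring and 0.17 without both crystallin-rich retinas; and for Emp1, at -0.13 without both. Leaving out single retinas gave -0.10 to 0.09 for Cd44 1434376_at, -0.02 to 0.77 for Emp1, -0.60 to 1.35 for S100a6, -0.03 to 0.02 for S100b, and -0.14 to 0.40, -0.20 to 0.57 and -0.28 to 0.41 for Vim 1438118_x_at, 1450641_at and 1456292_a_at. The cause was not tested beyond what leaving out a retina shows.

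Under the replicate block the Gfap 1426509_s_at difference was 1.07 with limma adjusted p = 0.336; deviations of same-numbered retinas correlated at -0.141, 0.0638 and -0.283 across probe sets, so the numbers were not taken as pairs. Dim signals limit Nes, Steap4 and S100b. The 3-month values of Gfap 1426509_s_at, at 4.25, 4.72 and 4.27, and of Emp1 1416529_at, at 4.71, 4.29 and 4.17, also lay near the filter.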
